A study of Mus musculus with 149 samples.

Results

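In all, 8 genes of bile acid and organic ion handling were followed through 149 single mouse liver cells: the uptake carriers Slc10a1, Slco1a1, Slco1b2 and Slc22a3, the export pumps Abcb11 and Abcc2, and the bile acid sensors Nr1h4 and Nr0b2. They were taken by name, 8 rows of the 20308 mouse genes in the table. All cells came from 1 wildtype male C57BL/6 mouse of 8 weeks, whose liver was perfused with a digestion medium and spun at low speed to enrich hepatocytes. Fluidigm C1 microfluidic chips caught single cells in traps of 17 to 25 µm (large chip, 80 cells), 10 to 17 µm (medium chip, 30 cells) or 5 to 10 µm (small chip, 39 cells), and ERCC spike-in RNA, a set of synthetic transcripts, was part of the lysis mix. No group was treated, no allele was altered, and the chips are the only labelled groups, so chip, cell size and capture run cannot be told apart. The labels give a trap size per cell and name no run, so 1 chip and 1 run per trap size are assumed here.

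Hepatocytes take bile acids and organic anions from portal blood across the sinusoidal membrane and pump them across the canalicular membrane into bile. Slc10a1 (NTCP) is the sodium-dependent bile acid importer, Slco1a1 and Slco1b2 are sodium-independent organic anion importers, and Slc22a3 is an organic cation transporter. Abcb11 (BSEP) is the canalicular bile salt export pump, and Abcc2 (MRP2) exports conjugated organic anions such as bilirubin glucuronides. Nr1h4 (FXR) is the nuclear receptor that binds bile acids, and Nr0b2 (SHP) is the corepressor it induces, which damps bile acid synthesis. Blood flows from the portal tract to the central vein, and hepatocytes along that path (periportal, then pericentral) are known to differ in their metabolism.

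The values are normalised expected counts, called levels below. They hold no read counts, so depth and counting error per value are unknown, and each chip is taken as 1 sample of 1 animal. Cells of 1 animal are not replicates. No p-value is therefore given, and SDs and correlations describe the spread of these cells only. The median spike-in share of a cell's summed values was 3.66% (large), 82.7% (medium) and 82.8% (small), and 64, 7 and 12 cells of these chips were under 50%. Those cells are called low-spike below and are given beside all cells. The median number of mouse genes above 0 was 7389.5, 2306.5 and 3087 over all cells of these chips. Low-spike cells were not alike between chips. Their median spike-in share was 3.25% (large), 6.12% (medium) and 28.1% (small). Their median number of mouse genes above 0 was 7543, 7107 and 4389.5. Comparisons of low-spike cells between chips are therefore not matched for either. The columns of the table were not in the order of the cells' labels. Along the 80 large-chip columns, Spearman's rho with the column position was 0.86 for Cyp2e1, a pericentral cytochrome P450, and -0.81 for Cyp2f2, a periportal one. With a score of 6 pericentral minus 6 periportal landmark genes, none of them a member, it was 0.94. The order thus ran from periportal to pericentral expression. Which genes the authors used to order the columns is not given in the sources used here, so a member may have had a part in the order. Position also moved with the number of genes above 0 (rho 0.22 over all large-chip cells, 0.34 over the 64 low-spike ones) and with the spike-in share (-0.37 and -0.55). All 8 hepatocyte markers had a median above 0 in every chip.

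The promoters of Slco1b2, Abcb11 and Slco1a1 are shown first, because Slco1b2 is the member called along the column order, Abcb11 is the bile salt export pump, which was not called and had the opposite sign, and Slco1a1 is an organic anion carrier on the same chromosome that was not called. Each is the RefSeq window (GRCm38.p6) of 250 bases before to 50 after the annotated start. Capitals mark the best match to the inverted repeat IR-1, which is AGGTCA and its reverse complement TGACCT with 1 free base between, and is known as the preferred site type of the Nr1h4 protein with its partner RXR. Both strands were searched, which for this repeat are the same letters.
Slco1b2 (chr6:141629268-141629567, plus strand): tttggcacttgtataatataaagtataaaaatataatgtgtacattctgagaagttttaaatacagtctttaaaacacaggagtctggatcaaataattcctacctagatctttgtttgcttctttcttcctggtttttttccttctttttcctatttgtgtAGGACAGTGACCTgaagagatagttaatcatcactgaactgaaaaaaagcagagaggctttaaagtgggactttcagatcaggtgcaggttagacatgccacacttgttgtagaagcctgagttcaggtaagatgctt
Abcb11 (chr2:69342567-69342866, minus strand): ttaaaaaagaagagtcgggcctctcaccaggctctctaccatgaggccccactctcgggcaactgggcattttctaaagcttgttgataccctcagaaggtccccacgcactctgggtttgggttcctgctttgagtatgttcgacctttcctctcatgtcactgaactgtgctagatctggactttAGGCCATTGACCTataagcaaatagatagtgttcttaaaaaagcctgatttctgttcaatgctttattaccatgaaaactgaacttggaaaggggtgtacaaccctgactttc
Slco1a1 (chr6:141946913-141947212, minus strand): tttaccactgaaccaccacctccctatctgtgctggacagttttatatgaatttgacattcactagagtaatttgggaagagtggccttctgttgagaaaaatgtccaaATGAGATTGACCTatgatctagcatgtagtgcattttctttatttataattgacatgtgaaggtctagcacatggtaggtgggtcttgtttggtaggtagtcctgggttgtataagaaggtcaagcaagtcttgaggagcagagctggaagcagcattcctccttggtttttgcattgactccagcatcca
The Slco1b2 window matched 11 of the repeat's 12 fixed letters, starting 88 bases before the start site (chr6:141629430-141629442). In Abcb11 the match was also 11 of 12, starting 63 bases before the start site (chr2:69342667-69342679). Of 32851 RefSeq promoter windows of this length, 27 (0.0822%) matched as many letters, and 0.00913% held the repeat in full. Slco1a1 matched 9 of 12, as 11.4% of windows did or bettered. The best match in Nr0b2, Nr1h4 and Abcc2 was 8 of 12, which 56.4% of windows reached, and in Slc22a3 and both listed starts of Slc10a1 it was 9 of 12. The Nr1h4 window (chr10:89506609-89506908) belongs to an internal start, since the gene, on the minus strand, begins at 89533585. Sites outside the windows were not searched. Other motifs searched in the same way were the direct repeat DR-1 (AGGTCA, 1 free base and AGGTCA again, so that it shares its first arm with IR-1), the HNF1 site (GTTAAT, 1 free base and the reverse complement ATTAAC) and the TCF/LEF site CTTTGAN. The closest DR-1 match was in Slco1a1, with 11 of 12 letters (0.554% of windows), at a place that overlaps its capitals. HNF1 was matched best in Nr1h4 and Abcc2, at 10 of 12 letters (1.36% of windows). An exact TCF/LEF match lay in the windows of Abcb11 and Slc22a3, and in 16% of all windows. These matches describe letters and show no binding.

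On GRCm38 (mm10), the build of the deposited values, Slco1b2 lies on chr6:141629518-141686646 on the plus strand and has 16 exons in its principal coding transcript, and Slco1a1 on chr6:141907282-141946962 on the minus strand with 14. The gap between them is 220.6 kb and holds the coding genes Slco1a4 and Gm5724. Of the 50-base stretches in Slco1a1 transcripts, 2.6% also occur in other genes, led by its relatives Slco1a4, Slco1a5 and Slco1a6, so a small part of its reads could be assigned to them or from them. None of those of Slco1b2, Slc10a1, Slc22a3, Abcb11, Nr1h4 or Nr0b2 is shared with another gene, and 0.163% of those of Abcc2 are. Slc10a1 lies on chr12:80953183-80968705 (minus), Abcb11 on chr2:69238282-69342616 (minus), Abcc2 on chr19:43782192-43840740 (plus), Nr1h4 on chr10:89454234-89533585 (minus) and Nr0b2 on chr4:133553376-133556536 (plus). Slc22a3, on chr17:12418960-12507704 (minus), overlaps the plasminogen gene Plg on the other strand, and Abcb11 overlaps an antisense gene and a pseudogene. Whether counting used strand is not given in the sources used here, so reads in these overlaps cannot be assigned with certainty.

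Per kilobase of transcript, which adjusts for the lengths of the genes' transcripts only, the uptake carriers Slc10a1, Slco1b2 and Slco1a1 stood highest. Over the 64 low-spike large-chip cells the median level per kilobase was 663 for Slc10a1, 339 for Slco1b2 and 197 for Slco1a1. The nuclear receptor Nr1h4 followed at 67.8 and the bile salt pump Abcb11 at 43.6, then Nr0b2 at 25.3 and Abcc2 at 11.9. The cells' middle ranges of neighbours in this order overlapped for most pairs: the quartiles of Slc10a1 (410 to 847) overlapped those of Slco1b2 (191 to 971), as did those of Nr1h4 (47 to 105) and Abcb11 (32.9 to 60.6). Slco1a1 (151 to 247) stood above Nr1h4 without overlap of quartiles. Slc22a3 had a median of 0.

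Levels by chip are given per gene from here on, as deposited and not per kilobase. Slco1b2 was above 0 in all 149 cells, the only member of which this held. Its level ran from 12.5 to 8654 with a median of 1038 over the 80 large-chip cells, from 0.63 to 3913 with a median of 195 over the 30 medium-chip cells and from 26.1 to 5359 with a median of 676 over the 39 small-chip cells. Slc10a1 was above 0 in 78, 23 and 29 cells of these chips, with medians of 990, 21.6 and 8.38 and highest values of 3878, 5844 and 6302. For Slco1a1 the counts were 77, 25 and 36, the medians 591, 12.1 and 22.6, and the highest values 4060, 2746 and 12057. The 3 carriers thus shared a high median in the large chip, and Slco1b2 alone kept a median above 100 in the small chip.

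**Figure D1:**
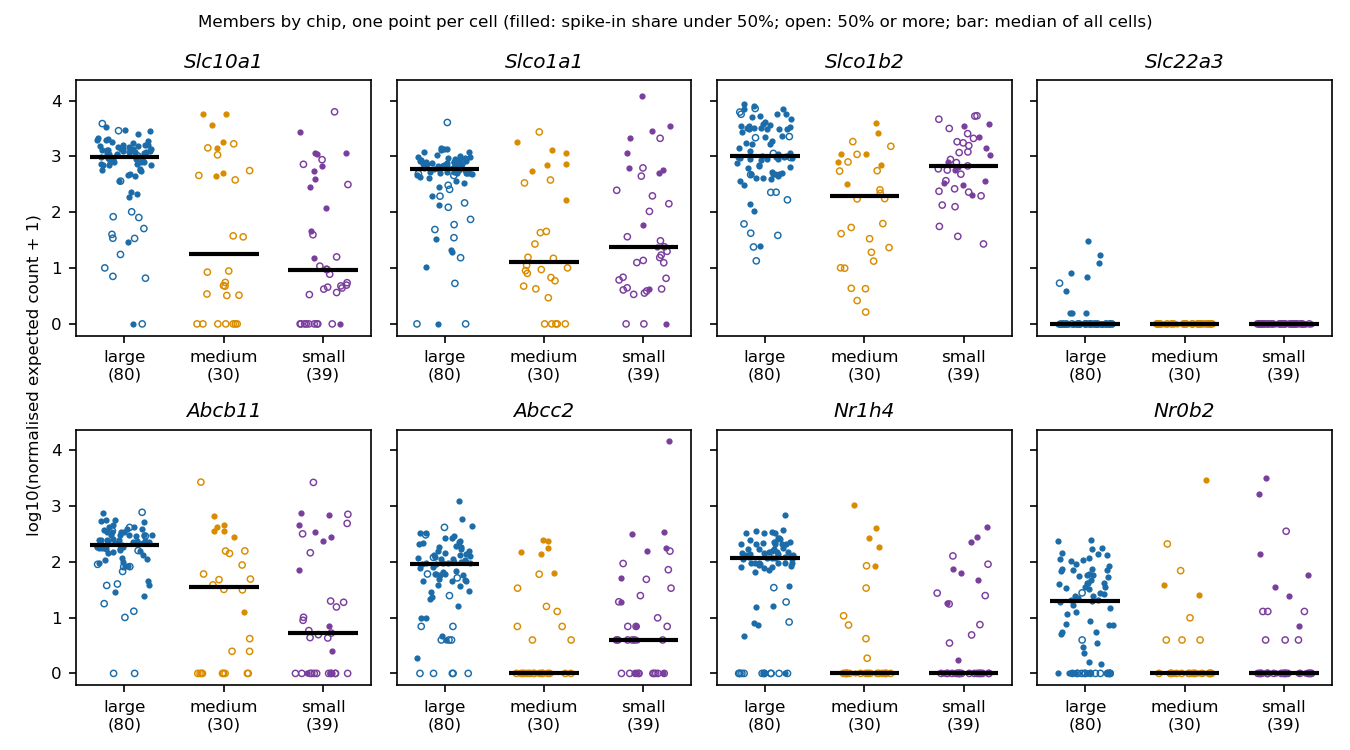
Levels of the 8 members, as log10(normalised expected count + 1), in each cell of the large (80), medium (30) and small (39) chips; filled points are low-spike cells (share under 50%), open points the others, and bars are medians over all cells of a chip. Slco1b2 lies above 0 in every cell, Slc22a3 in 10 large-chip cells only, and the medians of Nr1h4 and Nr0b2 are 0 in both smaller chips.

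The export pumps and sensors were above 0 in fewer cells of the smaller chips. Abcb11 was above 0 in 78 of 80 large-chip, 21 of 30 medium-chip and 24 of 39 small-chip cells (97.5%, 70% and 61.5%; exact Clopper-Pearson 95% intervals 91.3% to 99.7%, 50.6% to 85.3% and 44.6% to 76.6%, which cover counting error over cells only). Its medians were 201, 34.2 and 4.28 and its highest values 769, 2672 and 2640. Abcc2 was above 0 in 75, 14 and 26 cells, with medians of 91.2, 0 and 2.97. Nr1h4 was above 0 in 66, 11 and 16 cells, with medians of 115, 0 and 0, and Nr0b2 in 59, 9 and 14, with medians of 19.2, 0 and 0. Both smaller chips hold cells with fewer genes above 0, and every member but Slco1b2 was above 0 in a smaller share of them. Among low-spike large-chip cells Abcb11 and Abcc2 were above 0 in 64 of 64, Nr1h4 in 62 and Nr0b2 in 57. All 7 members other than Slc22a3 were above 0 together in 56 of 80 large-chip cells (55 of the 64 low-spike ones), 4 of 30 medium-chip cells and 6 of 39 small-chip cells.

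Slc22a3, the organic cation transporter, had a level above 0 in 10 cells, or 12.5%, of the large chip (exact 95% limits 6.16% and 21.8%) and was listed at 0 in all 30 medium-chip and all 39 small-chip cells, which allows a share of cells listed above 0 of up to 11.6% and 9.03% by the exact interval. This limits detection only, since most of these cells had a spike-in share of 50% or more and few genes above 0. Its highest level was 30.0, followed by 16.5. Of the positive large-chip cells, 5, counted after their values were seen, sat at columns 129, 144, 145, 147 and 148 of 149, with levels between 0.59 and 7.05 beside high levels of Cyp2e1. The 3 highest were elsewhere, at columns 38, 53 and 103. Slc22a3 was above 0 in fewer than 20% of cells, so it did not enter the comparisons across genes below, which cover 8813 genes and 7 of the 8 members.

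Chips were compared by the log2 ratio of mean levels with a pseudocount of 1, and a ratio of at least 1 in size was called. Large over medium, Slco1b2 (mean 2089 ± 2162 SD over 80 cells against 601 ± 902 over 30; 3.47-fold) and Abcc2 (123 ± 168 against 37.7 ± 72.1; log2 1.67) were called higher, 2 of 7 members where 37.5% of all genes tested were. Nr0b2 (39.2 ± 53.9 against 110 ± 537; log2 -1.46) was called lower, 1 of 7 against 12.7% of all genes. The median over the 7 members was 0.84 and over all genes tested 0.59. Large over small, Slc10a1 (1050 against 424; log2 1.31) and Nr1h4 (127 against 36.6; log2 1.77) were called higher, 2 of 7 where 41.9% of all genes were. Abcc2 (123 against 411; log2 -1.74) and Nr0b2 (39.2 against 141; log2 -1.81) were called lower, 2 of 7 where 12.8% were. The member and gene medians were 0.30 and 0.72. Cells of the chips overlapped for all members in both comparisons.

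Single cells set several of these ratios. Small-chip cell 36 held an Abcc2 level of 14506, where the next highest of that chip was 339, and also its highest Nr0b2 level, 3164. In the medium chip, cell 10 held 2944 of Nr0b2 and the next highest 208. Small-chip cell 31 held 12057 of Slco1a1 against 3511 in the next. Leaving out the highest cell of each chip for each gene, an alternative added after the values were seen, turned Abcc2 large over small from -1.74 to 1.40 and Nr0b2 large over medium from -1.46 to 1.50, and left Nr0b2 large over small at -0.72. In that setting 5 of 7 members were called higher and 0 lower against the medium chip (56.2% and 2.71% of all genes) and 3 and 0 against the small chip (60.4% and 2.86%). With low-spike cells alone (64 against 7 and 12), 0 members were called higher in either comparison, and 2 (Slc10a1 at -1.23 and Nr0b2 at -3.12, large over medium) or 3 (Slco1a1, Abcc2 and Nr0b2 at -1.54, -3.22 and -3.10, large over small) lower. Of all genes, 24.8% were higher and 17.3% lower over the medium chip in that setting, and 26.7% and 25% over the small chip. The low-spike cells of the chips still differed in spike-in share and in genes above 0, most in the small chip. The part of this in the low-spike ratios was not tested. Single cells weighed on these low-spike ratios too. Without the highest cell, the low-spike mean of Nr0b2 in the medium chip fell from 430 to 10.4. That of Abcc2 in the small chip fell from 1297 to 96.3. Means of Slc10a1 (medium), Slco1a1 (small) and Nr0b2 (small) fell less, from 2767 to 2254, 1949 to 1030 and 424 to 175. The difference between mean log2 levels, which weights such cells less, called 7 of 7 members higher against the medium chip, as it did 65% of all genes (0.102% lower), and 6 of 7 against the small chip, with 65.6% (0.443% lower). None of these counts sets the members as a group apart from the other genes.

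Markers of another cell type were present in part of the smaller chips. At least 3 of the 8 Kupffer cell markers in the table, those of the liver's resident macrophages, were above 0 in 8 of 30 medium-chip and 12 of 39 small-chip cells and in 0 of 80 large-chip cells. In these cells Slco1b2 was still above 0 in all 8 and all 12, with medians of 212 and 1002, against 195 and 676 in the rest of each chip. The hepatocyte product Alb was also above 0 in each of them, with medians of 20437 and 9887 against 22080 and 17815. Other members differed in direction. Medians of Slc10a1 were 1.135 and 3.835 against 36 and 8.55, and those of Slco1a1 9.1 and 5.705 against 14.3 and 29.8. Abcb11 had 92.85 and 11.8 against 33.9 and 3.95. Nr1h4 was above 0 in 1 of 8 and 5 of 12 of these cells, against 10 of 22 and 11 of 27 in the rest. The part of these captures in the chip ratios was not tested.

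Along the column order of the large chip, Slco1b2 was the 1 member of 7 with a rho of at least 0.3, where 2% of all genes tested were, and no member reached -0.3, where 4.82% of all genes did. Its rho was 0.58 over 80 cells, and 36 of the 8813 genes had a higher one. Over the 64 low-spike cells it was 0.77, with 20 genes higher, and Slco1b2 was again the 1 member called (3.72% of genes positive, 7.01% negative). Against the landmark score it was 0.56 and 0.71, and it was the 1 member called over all cells (1.88% of genes positive, 5.63% negative). Rescaling, holding the number of genes above 0 constant, or leaving out cells whose values sum to over 3000000 gave between 0.55 and 0.82. Medians over all members and over all genes were -0.03 and -0.03.

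In the first 16 large-chip columns the Slco1b2 level ran from 139 to 2163 with a median of 903 (mean 865 ± 462 SD), and in the last 16 from 3119 to 8654 with a median of 4668 (5023 ± 1850). The means at both ends differed 5.80-fold (log2 2.54). Rescaled to a sum of 1000000 per cell, the log2 difference was 2.26. Over 5 bins of the low-spike cells, the means were 746 ± 324 (13 cells), 752 ± 390 (13), 1152 ± 905 (13), 3321 ± 1320 (13) and 5210 ± 2079 (12). The first and second bin were alike within their spread, and the level stood higher from the fourth on. Of the 25 cells in bins 4 and 5, 17 lay above 3179, the highest of the 39 cells before them, and 24 above the median of those 39, 845. The change was not a clean step: the low-spike cells at columns 51 and 103 already held 3179 and 2340, and the cell at column 118 held 475.

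**Figure D2:**
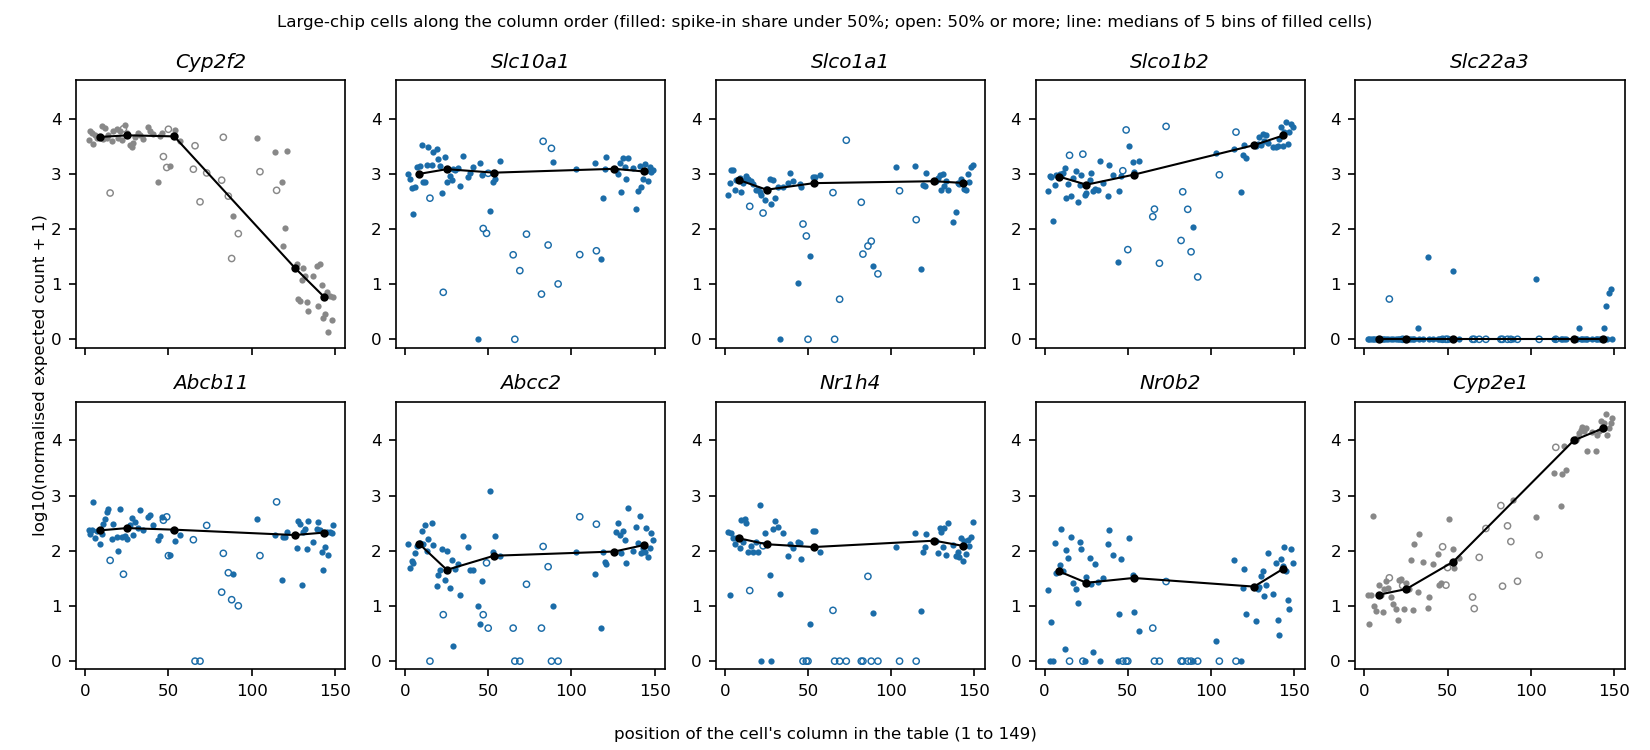
Levels in the 80 large-chip cells, as log10(normalised expected count + 1), against the cell's column position; filled points have a spike-in share under 50%, open points more, and black lines join the medians of 5 bins of the filled cells. Slco1b2 climbs toward the end where Cyp2e1 is high (medians of 890 in the first and 4954 in the fifth bin), while no other member tested has a rho of 0.3 or more in size over the filled or all cells.

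Markers of endothelial cells moved with the same end of the order: at least 3 of 8 were above 0 in 4, 2, 1, 7 and 6 of 16 cells per bin of all 80 large-chip cells. The summed level of these markers had medians of 0.73, 0.58, 0, 4.17 and 2.61 in the 5 bins, and its highest value, 113877, was in the fourth. In the fourth bin 2 of the 8 markers had a median above 0, and in the fifth bin 1. Without the 20 cells of the large chip that held 3 or more, the rho of Slco1b2 was 0.45. Summed markers of cholangiocytes, the cells that line bile ducts, went the other way, with medians of 140 in the first bin and 42.6 in the fifth, and Kupffer markers had a median of 0 in every bin.

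The low-spike cells of the smaller chips were too few to describe by more than their values. In the small chip, the 7 cells at columns 18 to 62 had Slco1b2 levels from 311 to 1042. The cell at column 93 had 204 and the cell at column 99 had 2255, and the 3 last, at columns 122, 135 and 136, had 3518, 1405 and 3779. Landmark levels did not always go with these values: the cell at column 93 had a Cyp2f2 level of 5.82, and the cell at column 99 had 5706. In the medium chip, the cell at column 138 had 3913 and the cell at column 75 had 2683 with more Cyp2f2 (2821) than Cyp2e1 (498), and the other 5, at columns 1 to 59, ran from 316 to 1103. The Spearman rho with the column order was 0.47 over the 12 small-chip and 0.54 over the 7 medium-chip low-spike cells. Over all cells of these chips, most of them with a spike-in share of 50% or more, it was 0.38 in the small and -0.19 in the medium chip, and the mean over 3 chips was 0.26, so that 0 members were called positive (0.342% of genes). With low-spike cells alone the mean over 3 chips was 0.59, the 1 positive call among the members (3.22% of genes), and 2 were negative, Slc10a1 at -0.47 and Nr1h4 at -0.33 (8.37% of genes).

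Slc10a1, the sodium-dependent carrier, was near level along the large chip. Its level ran from 187 to 3365 with a median of 1167 in the first 16 columns and from 234 to 1933 with a median of 1140 in the last 16, and the means of 1392 ± 1007 and 1101 ± 479 differed by less than either SD. Its rho was -0.05 over all and -0.06 over low-spike cells. In the smaller chips its rho was -0.49 (30 medium-chip cells) and -0.40 (39 small-chip cells), and -0.75 and -0.61 over the 7 and 12 low-spike ones, so that the mean over 3 chips, -0.31, passed the size of 0.3 (1 of 7 members negative, 3.6% of genes). In the medium chip the low-spike cells at columns 1, 8 and 43 held 5844, 3617 and 5693 of Slc10a1, above every large-chip cell but 1, and the cell at column 138 held 1440. In these chips later columns had fewer genes above 0 (rho -0.41 over medium-chip and -0.20 over small-chip cells), and the part of this in the Slc10a1 value was not tested.

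Slco1a1 had a mean of 711 ± 253 in the first 16 large-chip columns (range 256 to 1192) and 717 ± 341 in the last 16 (135 to 1412). Its rho was 0.06 over all and 0.10 over low-spike cells. Between the same cells Slco1b2 differed 5.80-fold, while the Slco1a1 means differed by less than its spread. In the smaller chips the rho of Slco1a1 was -0.15 (medium) and -0.26 (small) over all cells, and 0.68 and -0.29 over the 7 and 12 low-spike ones.

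Because Slco1b2 rose along the large-chip order while the means of Slc10a1 and Slco1a1 differed by less than their spread, the shares of these 3 carriers in their own sum changed along the order. Other uptake carriers were not part of this sum. Each carrier's level per kilobase was divided by the sum of the 3, in the low-spike large-chip cells. The share of Slc10a1 had a median of 59.1% in the first bin (range 21.5% to 81.7%) and 22.1% in the fifth (11.8% to 42.1%). That of Slco1b2 was 22.5% in the first bin (8.46% to 37.4%) and 65.3% in the fifth (55.6% to 83.1%). Slco1a1 went from 21.2% to 8.64%. Slc10a1 was the most abundant of the 3 in 11 of 13 first-bin cells and in 0 of 12 fifth-bin cells, and Slco1b2 in 0 of 13 and 12 of 12. In the bins between, Slco1b2 led in 2, 4 and 10 of 13 cells. Shares sum to 100%, so the fall in the other shares carries no evidence beyond the levels above.

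**Figure D3:**
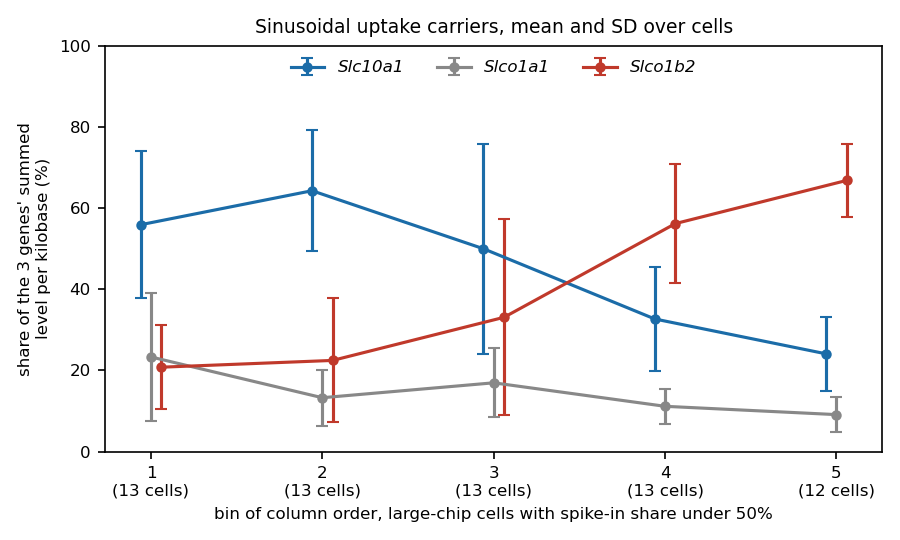
Share of the summed level per kilobase of Slc10a1, Slco1a1 and Slco1b2 taken by each gene, mean and SD over cells, in 5 bins of column order of the 64 low-spike large-chip cells. Slc10a1 leads in the first bins (mean 55.9% in the first) and Slco1b2 in the last (66.8% in the fifth).

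The canalicular pumps had rho values of opposite sign along the column order of the large chip, neither of them called. Against the landmark score Abcb11 was at -0.25 and Abcc2 at 0.23 over all 80 cells. Over the 64 low-spike cells they were at -0.31 and 0.31, and both were called, where 7.22% of all genes were negative and 4.07% positive. Abcb11 had a mean of 289 ± 181 in the first 16 large-chip columns (66.1 to 754) and 197 ± 91.1 in the last 16 (43.7 to 344), with overlapping ranges. Its rho was -0.22 over all cells and -0.25 over low-spike cells, and reached -0.31 with the number of genes held constant and -0.35 without the cells holding endothelial markers, settings in which 11.5% and 9.79% of all genes were at -0.3 or lower and 1.29% and 1.3% at 0.3 or higher. Abcc2 had a mean of 127 ± 89.3 first (0 to 321) and 192 ± 142 last (58.4 to 586), with a rho of 0.20 and 0.21. Over the low-spike bins its medians were 132, 44.2, 80.4, 96.1 and 126, lowest in the second bin, and the cells of all bins overlapped. The highest large-chip Abcc2 level, 1235, was in a cell at column 51. In the smaller chips both pumps were negative over all cells, Abcb11 at -0.29 (medium) and -0.15 (small) and Abcc2 at -0.24 and -0.15. Over the 7 and 12 low-spike cells, Abcb11 was at -0.07 and -0.42 and Abcc2 at 0.11 and -0.57.

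In the large chip neither sensor met the size rule. Nr1h4 had a mean of 167 ± 106 in the first 16 large-chip columns and 150 ± 84.9 in the last 16, with a rho of -0.10 over all and -0.08 over low-spike cells. Nr0b2 had means of 58.5 ± 72.3 and 44.3 ± 36.3, with a rho of -0.03 and -0.01. Its cells ran from 0 to 244 at the first end and from 1.99 to 115 at the last. In the smaller chips, rho was -0.27 and -0.17 for Nr1h4 and -0.14 and -0.27 for Nr0b2 (medium and small, all cells). Over the 7 and 12 low-spike cells it was -0.63 and -0.27 for Nr1h4 and -0.16 and -0.59 for Nr0b2.

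Of the other genes of the pathway that were tested, those that met the rho of 0.3 in size in the large chip were all toward the pericentral end, where 2% of all genes tested met 0.3 and 4.82% met -0.3. Among 8 uptake carriers tested, 2 did (Slco1b2 and Slc22a5, a carnitine carrier, at 0.34, with means of 6.09 ± 10 first and 32 ± 25 last), and the list's median was 0.13. Neither of 2 basolateral exporters tested, nor any of 8 canalicular exporters (median 0.12) or 9 canalicular scaffold and trafficking genes (median -0.08), passed in either direction. The listed basolateral exporter Slc51b, above 0 in 10.1% of all cells and so not tested, was at -0.34 over all large-chip cells, toward the periportal end. Its means were 3.02 ± 5.95 first and 0.837 ± 3.35 last. Of 11 sensors and nuclear receptors 1 passed, the xenobiotic receptor Nr1i3 (CAR), with a rho of 0.67 and means of 2.91 ± 9.96 and 71.7 ± 49.5. Of 12 bile acid synthesis enzymes 3 passed. Cyp7a1, the rate-limiting enzyme of the classical route, had a rho of 0.72, with 1.48 ± 5.48 in the first 16 columns and 383 ± 269 in the last 16. Cyp27a1, the sterol hydroxylase of the alternative route, had 0.38 (54.8 ± 33 and 135 ± 63.7), and Cyp2c70, which makes muricholic acids in mice, had 0.32 (1433 ± 777 and 2394 ± 906). Over the low-spike cells the counts were 3 of 8 uptake carriers, 1 of 8 canalicular exporters, 1 of 11 sensors and 5 of 12 synthesis enzymes at 0.3 or higher, and 1 sensor and 2 synthesis enzymes at -0.3 or lower, where 3.72% and 7.01% of all genes were.

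**Figure D4:**
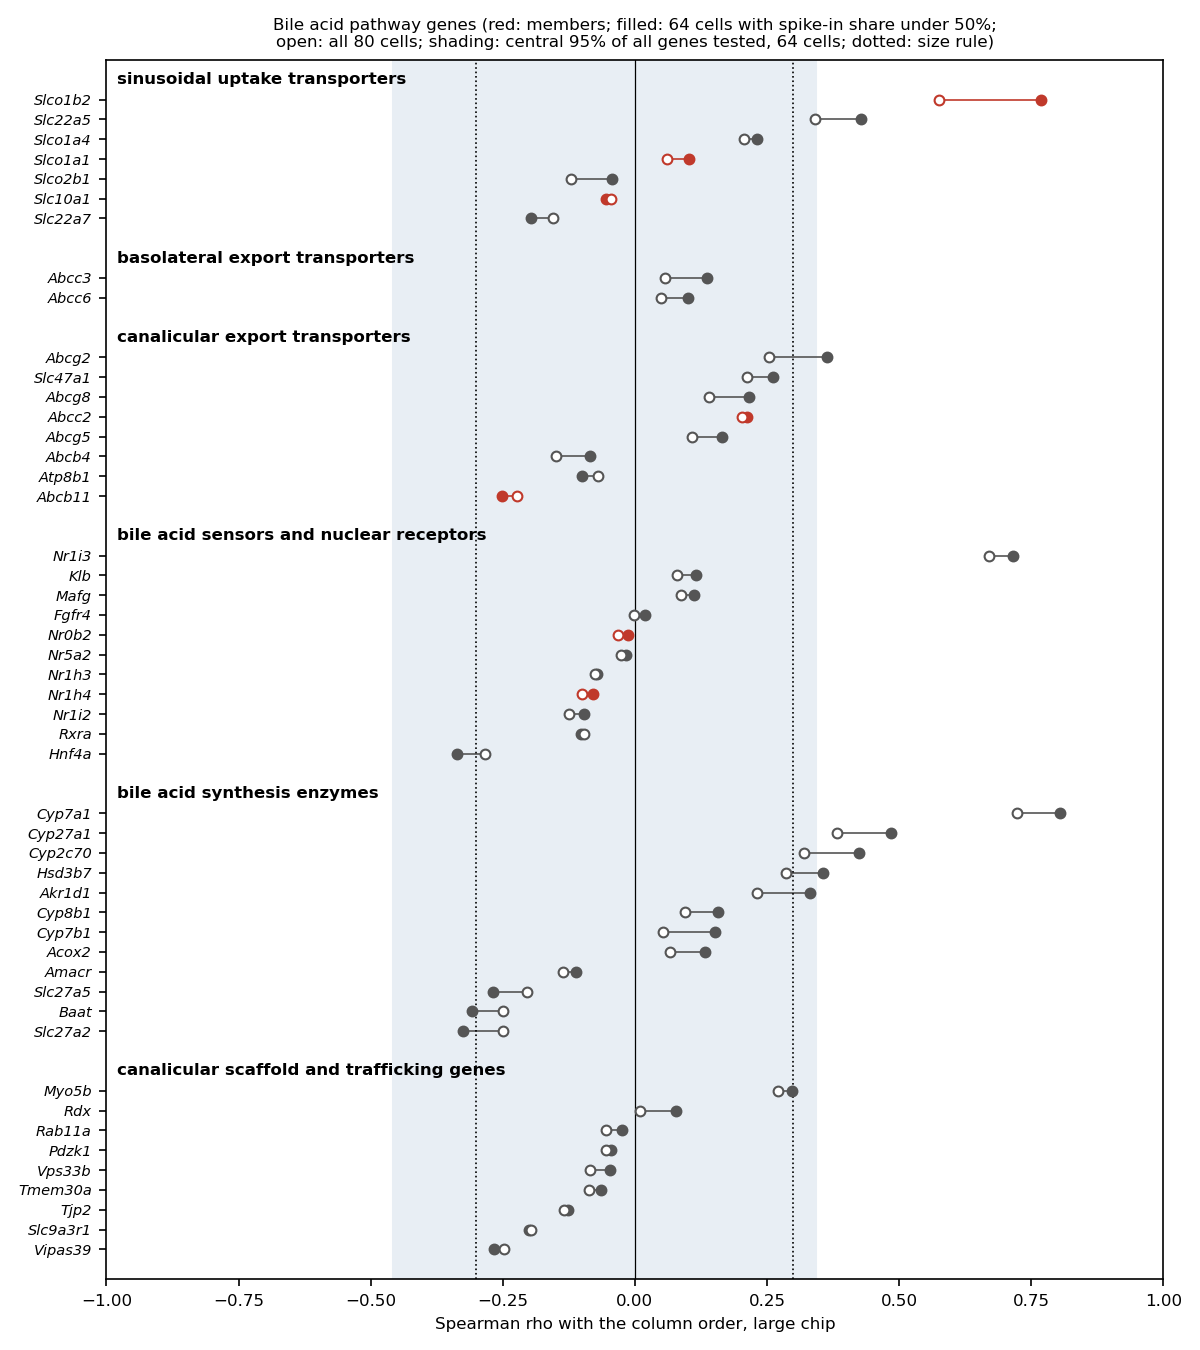
Spearman rho with the column order in the large chip for tested genes of 6 bile acid pathway lists (1 uptake gene is not shown); filled points use the 64 low-spike cells (share under 50%), open points all 80 cells, red marks members, shading covers the central 95% of all 8813 genes over the 64 cells (-0.46 to 0.34), and dotted lines mark 0.3 and -0.3. Slco1b2 (0.77), Nr1i3 (0.72) and Cyp7a1 (0.80) lie farthest to the right.

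How far Nr1h4, its induced corepressor Nr0b2 and its export target Abcb11 moved together depended on the cells included. Over the 64 low-spike large-chip cells, rho was 0.07 for Nr1h4 with Nr0b2, 0.16 for Nr1h4 with Abcb11 and 0.12 for Nr0b2 with Abcb11, and it was 0.01 for Nr1h4 with Slco1b2. Over all 80 cells the first 3 were 0.40, 0.28 and 0.31, and 0.21, 0.17 and 0.19 with the number of genes held constant, and Nr1h4 with Slco1b2 was 0.17. All such values come from cells of 1 animal and 1 chip, which share their normalisation and vary in the number of genes above 0. Nr1h4 and Nr0b2 were both above 0 in 55 of the 64 low-spike cells, Nr1h4 alone in 7 and Nr0b2 alone in 2. Abcb11 and Slco1b2, whose promoter windows hold the same repeat to 11 of 12 letters, had a rho of -0.11 over the 64 cells and 0.14 with the column position held constant, and of 0.23 and 0.45 over all 80. Among the 21 pairs, the highest rho was that of Slco1b2 with Abcc2, an importer and an exporter of organic anions, at 0.46. It was 0.35 with the number of genes held constant and 0.47 with the column position held constant, and 0.50 over all 80 cells. The next were Abcc2 with Nr0b2 at 0.30, Slco1a1 with Slco1b2 at 0.27 and Slco1a1 with Nr1h4 at 0.26.

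**Figure D5:**
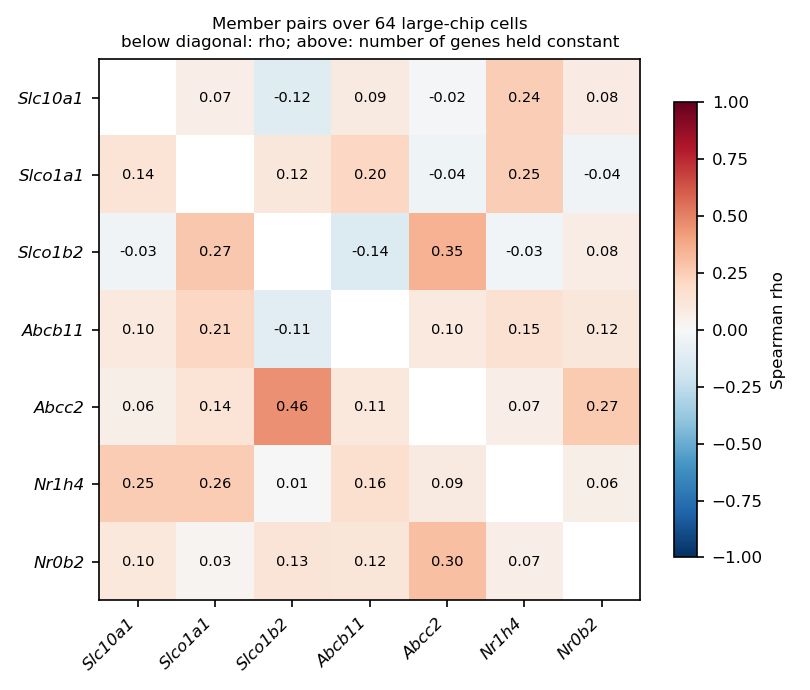
Spearman rho between the levels of member pairs over the 64 low-spike large-chip cells; values below the diagonal are plain, those above hold the number of genes above 0 constant, and color runs from -1 to 1. The pair of Slco1b2 and Abcc2 is highest at 0.46 (0.35 above the diagonal), and Nr1h4 with Nr0b2 is at 0.07.

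The genes most like each member over the 64 low-spike large-chip cells were named by the highest rho. For Slco1b2 these were Plbd1 (0.83), Tbx3 (0.83), a Wnt-regulated transcription factor of pericentral hepatocytes, and Gstm2 (0.82), a glutathione transferase, each of which also had a rho of over 0.8 with the column order. For Abcb11 they were Lrp1 (0.63), an endocytic receptor, Abcd3 (0.62), a peroxisomal transporter, and Kif13b (0.56), and none of them passed 0.3 in size with the order. Those of Abcc2 were Nfyb (0.56), Mut (0.50) and Htatip2 (0.495). Slc10a1 had Eif5a (0.51), Tsn (0.51) and Pdia3 (0.48), and Slco1a1 had Alkbh6 (0.56), Xkr9 (0.53) and Fam45a (0.51). Nr1h4 had Gdf15 (0.54), Nsfl1c (0.50) and Ugt3a2 (0.49), and Nr0b2 had Selrc1 (0.53), Gosr1 (0.48) and Dcakd (0.48). For Slc22a3, above 0 in 9 of these cells, the closest were Rap1gds1 (0.43), Cacnb4 (0.41) and 1700021K19Rik (0.40). These are the top of 8813 values each, so their size is in part fixed by the choice. The central 95% of all genes reached 0.39 for Slco1b2 and between 0.26 and 0.35 for the other members.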

How the data were processed

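RNA was measured in 149 single cells of 1 mouse on Fluidigm C1 chips of 3 trap sizes, each size taken as 1 chip. The deposited values are a normalised signal: 1 table of normalised expected counts with 2 decimals, which holds 92 spike-ins and 20308 mouse genes (5453 at 0 in all cells). Per the submitters' processing notes, the authors used CASAVA 1.8.2, Bowtie 0.12.9 and RSEM 1.2.3 with mm10; its title also carries the names SCnorm (a normalisation) and WaveCrest (an ordering of cells), about which the labels are silent. Normalisation can change levels between chips and cells, so results are also given rescaled to a sum of 1000000 per cell over mouse genes. Columns were mapped by name to the labelled cells, and 0 were left out. Cells of 1 group are numbered by their labels.

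The 8813 genes with a value above 0 in 20% of cells or more were tested. Chips were compared by the log2 ratio of means with a pseudocount of 1, and a size of 1 was called. Along the column order and the landmark score a Spearman rho of 0.3 in size within the large chip was called. No p-value was computed, since each chip is taken as 1 sample of 1 animal. Bins are 5 sets of cells of near-equal number along the column order. Endothelial, Kupffer and other marker lists were counted where at least 3 markers were above 0; stellate and lymphocyte markers reached 3 in 1 and 0 of the 80 large-chip cells, 2 and 0 of the 30 medium-chip cells, and 0 and 0 of the 39 small-chip cells. Cholangiocyte markers did so in 55, 3 and 8. No doublet caller was run.

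All 8 members were named throughout, from each pathway list up to 3 called genes with the largest rho (all where 5 or fewer were called), and for each member the 3 genes of highest rho to it. Slc51b, below the gene filter, was named in addition. The values of 1 listed uptake gene are not reported here, though it counts in its list. Members and lists were chosen with earlier results of these data known. Positions are from GENCODE release M21, and promoter windows from RefSeq (GRCm38.p6), where all 8 members matched. The length of a gene is that of its principal coding transcript. Alternatives covered the scaling, spike-in limit, gene filter, pseudocount, kind of correlation, number of genes held constant, and cells left out. Methods were tested on simulated data, which were large-chip values shuffled within each gene, with trends and differences planted. These data hold no differences in spike-in share between chips, so the chip ratios were not tested under such differences. The scripts ran in Python 3.11.15 with scipy 1.17.1, pandas 2.3.3 and numpy 2.4.6, and plots were drawn with matplotlib 3.10.9.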

Additional observations from a re-analysis of the deposited data

How the results depend on the processing

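Counts of members along the order kept Slco1b2 as the 1 positive call under every alternative run in the large chip alone. The mean over 3 chips called 0 positive for the order and for the landmark score. Members at -0.3 or lower, 0 in the main setting, numbered 1 for the order with the number of genes held constant, with the mean over 3 chips and without cells holding 3 or more endothelial markers, and 2 with the mean over 3 chips of low-spike cells. For the landmark score they numbered 1 in low-spike cells (Abcb11), with the number of genes held constant (all or low-spike cells), with the mean over 3 chips and without the endothelial cells, and 2 with the mean over 3 chips of low-spike cells. Positive calls for the score were 2 in low-spike cells (Slco1b2 and Abcc2) and 2 without cells of a sum over 3000000. Large over medium, the number called higher was 0 in low-spike cells, as deposited or rescaled, 7 by the difference of mean log2 and 5 without the highest cell of each chip; the number called lower was 0 after rescaling, 2 in low-spike cells, 0 by mean log2 and 0 without the highest cells. Rescaling also moved the number called higher to 3. Large over small, the number called higher was 0 in low-spike cells as deposited, 2 in low-spike cells rescaled and 6 by mean log2. The number called lower was 0 by mean log2 and 0 without the highest cells. Among values called in the main setting, directions turned for Abcc2 large over medium in low-spike cells (-0.046), Nr0b2 large over medium by mean log2 (2.10) and without the highest cells (1.50), and large over small for Abcc2 by mean log2 (2.57) and without the highest cells (1.40) and for Nr0b2 by mean log2 (1.70). Of values not called there, large over medium turned in low-spike cells, as deposited and rescaled, for Slc10a1 (-1.23 as deposited), Slco1a1 (-0.46), Abcb11 (-0.56) and Nr1h4 (-0.86), and large over small turned on rescaling for Slco1b2 (-0.64) and Abcb11 (-0.57) and by mean log2 and without the highest cells for Slco1a1 (2.84 and 0.49). Along the order, Abcc2 and Slco1a1, positive in the large chip, were at -0.06 and -0.12 by the mean over 3 chips. The cause was not tested. Low-spike rescaled cells, cells left out for their sum, endothelial markers or highest value, and combined settings were chosen after seeing the data. No paired analysis was possible because the numbers in the labels name cells and no result comes from a test between replicated groups. Read depth is unknown, so levels of 0 in high-spike cells show no absence.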
